A study of Mus musculus with 2 samples.

Results

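A group of 10 gut genes that thymic epithelium expresses as self-antigens was followed in mTEChi, the medullary thymic epithelial cells with high MHC class II. It held 2 regenerating lectins (Reg3b and Reg3g), 3 fatty acid binding proteins (Fabp1, Fabp2 and Fabp6), 3 trefoil factors (Tff1, Tff2 and Tff3), the mucin Muc2 and villin (Vil1). The members were chosen by symbol, and all 10 were found among the 23571 genes of the count table, each with 1 RefSeq transcript. The question was how these antigens differ between mTEChi with and without knockdown of Clp1, a subunit of the machinery that cleaves the 3' end of nascent transcripts. Both libraries came from 1 B6 lentigenic mouse, the only pup used, whose integrated vector carried a TetOn3G transactivator driven by the EF1 promoter and, behind the TRE3G doxycycline-inducible promoter, 3 shRNAs against Clp1 together with a ZsGreen reporter. Doxycycline was given from 3 weeks of age for 2 weeks at 2 g per kg of food, so that both cell groups shared the animal, its age and the drug. GFP+ cells gave the Clp1 knockdown library and GFP- cells gave the Ctr library. With 1 library per group there is no replicate, no p-value was computed, and each difference is between these 2 libraries from 1 animal.

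These genes are textbook products of the gut epithelium. Enterocytes of the small intestine carry a brush border of microvilli bundled by villin and move fatty acids and bile acids with cytosolic binding proteins, while goblet cells and gastric mucous cells release mucins and the trefoil peptides that protect the surface. Medullary thymic epithelial cells express such tissue-restricted genes, many of them through Aire, and display them to developing T cells, and any single antigen is usually made by a minority of the cells.

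Counts summed over all RefSeq transcripts were 28464803 in the Ctr library and 37524730 in the knockdown library. These sums are not sequenced reads, since a read in several transcripts can be counted for each. Clp1 itself went from 1573 to 812 reads between Ctr and knockdown, 39.7% of Ctr after scaling (95% counting interval of the log2 ratio -1.46 to -1.21). All 11 mature mTEC markers were present in both libraries, with 7462 and 8264 reads for Aire, and their summed scaled reads were 729549 and 799645 (1 higher, 1 lower, median log2 ratio 0.18). Markers of other cells were not alike in the 2 libraries. Endothelial markers (9 of 9 lower, none at 0 reads) summed to 23205 scaled reads for Ctr against 2186 for the knockdown, and 3 distinct red cell markers (all lower) to 61892 and 2071, with Hba-a1 and Hba-a2, alpha globin copies listed with the same reads, counted once. General thymic epithelial markers summed to 124162 and 184637 (4 of 10 higher, median 0.59). The part of these differences in the results was not tested.

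Because Clp1 acts at the 3' end, the last 30 bases of the annotated transcripts are shown for the 3 members that were more than 2-fold lower (Reg3b, Fabp6 and Tff1), for the most abundant member (Reg3g), for a member without a canonical signal (Tff2), and for both ends of Vil1, the only member with a proximal poly(A) site (pA) in the deposited table. Sequences were read 5′ to 3′ on the transcribed strand of the mm9 genome with GENCODE vM1 ends, and capitals mark the poly(A) signal hexamer AATAAA or ATTAAA. The windows lie at chr6:78323431-78323460 (plus strand) for Reg3b, chr6:78416262-78416291 (minus) for Reg3g, chr11:43409551-43409580 (minus) for Fabp6, chr17:31298341-31298370 (minus) for Tff1, chr17:31277994-31278023 (minus) for Tff2, chr1:74482062-74482091 (plus) for the proximal pA of Vil1 and chr1:74482104-74482133 (plus) for its annotated end.
Reg3b: ttctaaAATAAAaataagctttctgtcaca
Reg3g: ataatATTAAAgtatataactcatgctcat
Fabp6: accAATAAAagtgtttcatggatcaccact
Tff1: tcggcctgagaATTAAAagagatgaatgtt
Tff2: caagtaaagaaaagttgaaaaacctggcaa
Vil1 proximal pA: aaacaAATAAAtcaaactaatatgaggtta
Vil1 annotated end: atgtctctcacacATTAAAacaaaacaaaa

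AATAAA was found in this window in 5 of the 10 members (Reg3b, Fabp1, Fabp2, Fabp6 and Muc2) and ATTAAA in 3 (Reg3g, Tff1 and Vil1). Tff2 and Tff3 held neither. Among 19815 coding transcripts with a 3'UTR, 53.6% held AATAAA on the same strand, 14.0% ATTAAA and 65.9% at least one of them, some transcripts holding both. The 3 members more than 2-fold lower had either hexamer, as did 5 of the 7 others. A match is a description of these letters and not a mapped site.

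Reads are given as deposited and, where stated, as scaled reads, that is reads divided by a median-of-ratios size factor (0.877 for Ctr and 1.14 for the knockdown library). Ratios are knockdown over Ctr, and a member was called when it had at least 10 reads over both libraries, a ratio of 2 or more, and a 95% interval that excluded no change. Intervals cover counting error only, since reads came from amplified cDNA without molecular identifiers. By this rule 3 of 10 members were lower (Reg3b, Fabp6 and Tff1) and 0 were higher, where 19.7% of the 18993 genes with at least 10 reads were lower and 22% higher. With any fold, the interval lay wholly below no change for 6 members and wholly above it for 2, Tff2 and Vil1, and it held no change for Fabp2 and Muc2. Over all genes these intervals lay below for 40.5% and above for 42.8%. The median log2 ratio of the members was -0.67, beside 0.03 over all genes (interquartile range -0.75 to 0.85). In bulk RNA, fewer cells making an antigen and less RNA per cell cannot be told apart.

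**Figure D1:**
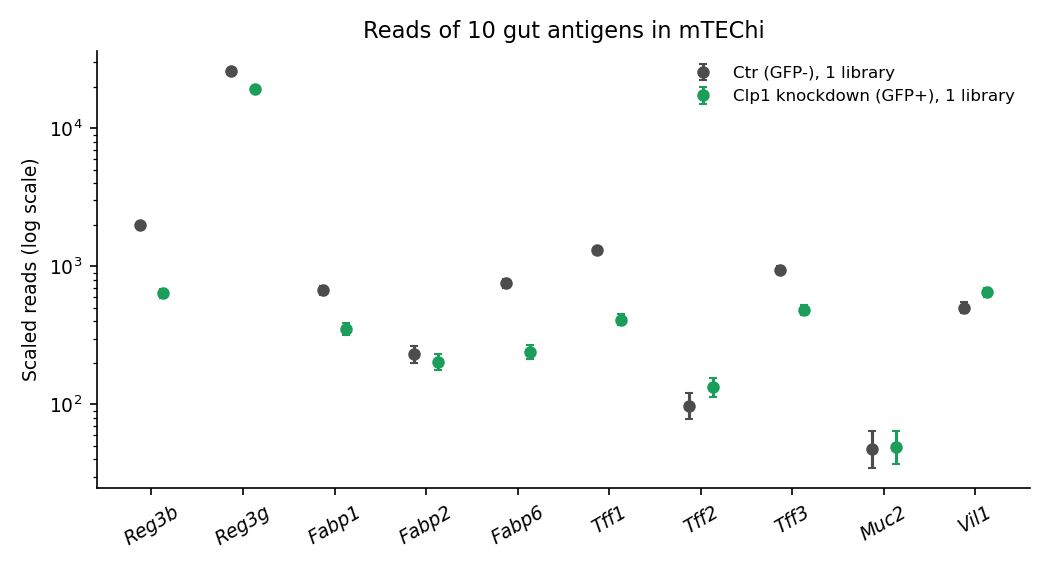
Scaled reads (log scale) of the 10 gut antigens in the Ctr library (grey) and the Clp1 knockdown library (green), with 95% Poisson intervals that cover counting error only. Reg3g is far above the rest in both libraries, Reg3b, Fabp6 and Tff1 show the widest gaps between the points, and Tff2, Muc2 and Vil1 show knockdown points at or above Ctr.

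The regenerating lectins are secreted C-type lectins, and Reg3b and Reg3g bind and limit bacteria at the intestinal surface. Reg3b (chr6:78320879-78323460, plus strand) had 1753 Ctr reads and 727 knockdown reads, or 1999 and 638 scaled reads. Its knockdown level was 31.9% of Ctr (95% interval 29.2% to 34.8%), a log2 ratio of -1.65 (-1.78 to -1.52), and the intervals of the 2 libraries lay apart. Of all genes with at least 10 reads, 12.3% were as low or lower.

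Reg3g (chr6:78416262-78418868, minus strand) had 22608 Ctr reads and 21941 knockdown reads, or 25777 and 19243 scaled reads. The knockdown level was thus lower, at 74.7% of Ctr (73.3% to 76.1%), a log2 ratio of -0.42 (-0.45 to -0.39). The narrow interval reflects the number of reads and not agreement between samples, and 33.5% of all genes were as low or lower. Reg3g was the main product of the group, with 79.7% of the reads of the 10 members in Ctr (79.3% to 80.2%) and 85.9% (85.5% to 86.3%) in the knockdown library. By RPKM, the reads per kilobase of transcript and per unit of the summed counts, it ranked 31 among all Ctr genes and 33 under knockdown. The other lectin of the pair differed by more. Reg3b made up 7.20% of the Reg3b and Reg3g reads in Ctr (6.87% to 7.53%) and 3.21% (2.98% to 3.44%) in the knockdown library. The difference of the 2 log2 ratios was -1.23 (-1.36 to -1.10), so the counting intervals separate the lectins although they lie in the same cluster.

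The fatty acid binding proteins are small cytosolic carriers. Fabp1, the liver-type form that proximal enterocytes also make, lies at chr6:71149821-71155017 (plus strand) and had 587 Ctr reads and 403 knockdown reads, or 669 and 353 scaled reads. It was at 52.8% of Ctr (46.4% to 60.1%), a log2 ratio of -0.92 (-1.11 to -0.74), just short of the 2-fold rule. Fabp2, the intestinal form (chr3:122597990-122602424, plus strand), had 202 and 233 reads, or 230 and 204 scaled reads. Its log2 ratio was -0.17 (-0.45 to 0.11), and no difference was detectable at this depth. Fabp6, the ileal bile acid carrier (chr11:43409551-43415042, minus strand), had 662 and 273 reads, or 755 and 239 scaled reads. It was at 31.7% of Ctr (27.4% to 36.6%), a log2 ratio of -1.66 (-1.87 to -1.45).

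The 3 carriers differed from each other. Fabp6 was the most read of them in Ctr, with 45.6% of their reads (43.0% to 48.2%), and came second to Fabp1 in the knockdown library, where it held 30.03% (27.1% to 33.1%). Fabp1 held 40.5% (37.9% to 43.0%) in Ctr and 44.3% (41.1% to 47.6%) in the knockdown library, intervals that overlap. Fabp2 held 13.9% (12.2% to 15.8%) and 25.6% (22.8% to 28.6%). The ileal form differed from the intestinal form by -1.48 in log2 ratio (-1.83 to -1.13) and Fabp1 from Fabp6 by 0.73 (0.46 to 1.02).

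The trefoil factors are small secreted peptides that stabilize mucus and help epithelial repair. Tff1, typical of gastric surface mucous cells (chr17:31298341-31301998, minus strand), had 1143 Ctr reads and 468 knockdown reads, or 1303 and 410 scaled reads. It was at 31.5% of Ctr (28.2% to 35.1%), a log2 ratio of -1.67 (-1.83 to -1.51). The value is uncertain as to its locus. All 429 windows of 50 bases, the read length, that tile the 478 bp transcript are shared with Gm3090, an identical copy in the mm9 annotation at chr5:143285577-143289234 (minus strand), so that reads of the copies cannot be told apart. In addition 221 of the 478 exonic bases of Tff1 overlap exons of Gm15318 on the plus strand, for which no count was used here, and no source used here states if reads were assigned by strand.

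Tff2, the spasmolytic peptide of gastric neck cells (chr17:31277994-31281227, minus strand), had 86 Ctr reads and 152 knockdown reads, or 98.1 and 133 scaled reads. It was the member with the highest ratio, 1.36-fold over Ctr (1.04 to 1.79), a log2 ratio of 0.44 (0.05 to 0.84), under the 2-fold rule and on the fewest reads but for Muc2. Tff3, the goblet cell peptide (chr17:31262251-31266591, minus strand), had 826 and 555 reads, or 942 and 487 scaled reads. At 51.7% of Ctr (46.3% to 57.6%), its log2 ratio of -0.95 (-1.11 to -0.80) missed the rule by a narrow margin.

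Within the trefoil family the order of the genes changed by read counts, which are not divided by length. Per length of the deposited parts, Tff3 stood above Tff1 and Tff1 above Tff2 in both libraries. Over the 478 bp of 1 copy, Tff1 would stand above Tff3 in Ctr and below it under knockdown. Tff1 held 55.6% of the trefoil reads in Ctr (53.4% to 57.8%) and 39.8% (37.0% to 42.7%) in the knockdown library. Tff3 went from 40.2% (38.1% to 42.4%) to 47.2% (44.3% to 50.1%) and Tff2 from 4.18% (3.36% to 5.14%) to 12.9% (11.1% to 15.0%). The log2 ratio of Tff1 was below that of Tff2 by -2.11 (-2.54 to -1.69) and below that of Tff3 by -0.71 (-0.94 to -0.49), the former being the widest gap between any 2 members of 1 family.

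Muc2 and Vil1 stand for the goblet cell gel and the enterocyte cytoskeleton. Muc2, the gel-forming mucin of the intestine (chr7:148876268-148940595, plus strand), had 42 Ctr reads and 56 knockdown reads, or 47.9 and 49.1 scaled reads over a transcript of 6499 bp. Its log2 ratio of 0.04 (-0.57 to 0.65) allows a level up to 1.48-fold lower or 1.57-fold higher. Vil1, the actin-bundling protein of microvilli (chr1:74455950-74482133, plus strand), had 440 and 738 reads, or 502 and 647 scaled reads. It was 1.29-fold over Ctr (1.14 to 1.46), a log2 ratio of 0.37 (0.20 to 0.54), and 37.5% of all genes were as high or higher. Vil1 is the only structural protein among the members, and its ratio and that of Muc2 differed by 0.33 (-0.31 to 0.96).

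**Figure D2:**
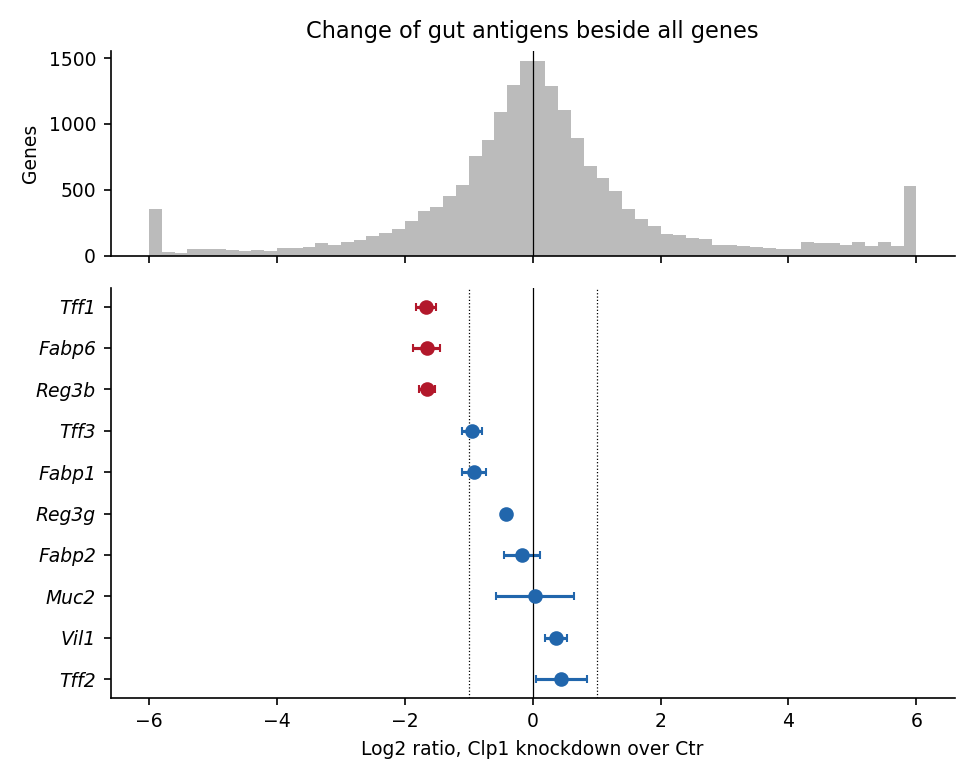
Top, log2 ratios (knockdown over Ctr, 0.5 added to scaled reads) of all 18993 genes with at least 10 reads, with values past -6 or 6 stacked in the end bins. Bottom, log2 ratios of the 10 members with 95% counting intervals, red for the 3 called lower, with dotted lines at 2-fold. Tff1, Fabp6 and Reg3b lie close together near -1.66, and Tff3 and Fabp1 sit just inside the 2-fold line.

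Per length, the members spanned a wide range. In Ctr, Reg3g stood at 1026 RPKM, followed by Reg3b (81.1), Tff3 (63.4), Fabp6 (60.1), Tff1 (51.8), Fabp1 (41.9), Fabp2 (11), Tff2 (5.29), Vil1 (4.96) and Muc2 (0.227). In this order Tff3 and Fabp6 did not differ beyond counting error, nor did Tff2 and Vil1. Under knockdown the order was Reg3g (755 RPKM), Tff3 (32.3), Reg3b (25.5), Fabp1 (21.8), Fabp6 (18.8), Tff1 (16.1), Fabp2 (9.63), Tff2 (7.09), Vil1 (6.31) and Muc2 (0.230). The level of Muc2 rests on where its reads lie, since on the last exon alone it was 1.39 RPKM in Ctr and 1.69 under knockdown. Here the neighbours Reg3b and Fabp1, Fabp1 and Fabp6, Fabp6 and Tff1, and Tff2 and Vil1 had overlapping intervals. Tff3 thus passed Reg3b, and more neighbours overlapped than in Ctr, where Reg3b, Fabp1, Fabp6 and Tff1 had more reads. The place of Tff1 depends on its length, since the deposited parts of Tff1 add up to 775 bp with a 5'UTR of 66 bp, whereas 1 copy of the transcript has 478 bp. Over 478 bp, Tff1 would stand at 84.0 RPKM in Ctr and 26.1 in the knockdown library, above Reg3b in value in both. For Fabp6 the table holds 387 bp of coding length and no 3'UTR.

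The reads of a member can also move along its transcript. The deposited parts divide a transcript into the 5'UTR, the earlier exons and the last exon upstream of the most proximal pA, and 9 of the 10 members have an upstream last exon (Fabp6 has none). Their 5'UTR parts held 0 reads in both libraries. These parts have 7 bp (Muc2) to 66 bp (Tff1), and all but those of Tff1 and Vil1 are shorter than the 50 bp reads. The 0 reads are thus no measure of coverage at the 5' end. The density of reads in the upstream last exon over that in the earlier exons was 1.60 for Ctr and 1.63 for knockdown cells in Reg3g, a log2 change of 0.03 (-0.02 to 0.09), and 1.47 and 1.36 in Reg3b, a change of -0.12 (-0.37 to 0.14). The lower read count of Reg3b was therefore spread over both parts, with 942 and 406 reads in the earlier exons and 807 and 321 in the last. Tff1 was alike in this respect (1.49 and 1.75, a change of 0.23, -0.18 to 0.63). Its density ratios are uncertain as levels, though the change between libraries does not depend on part lengths. Its last-exon part has the 198 bp of 1 copy, but its earlier exons have 511 bp, more than the whole 478 bp transcript. The parts held only 66.1% of its Ctr reads and 66.7% of its knockdown reads.

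Tff2 and Vil1 were the members whose reads shifted beyond counting error. For Tff2 the upstream last exon held 38 reads in both libraries, while the earlier exons held 46 in Ctr and 98 under knockdown. The density ratio was 1.93 and 0.906, a log2 change of -1.09 (-1.97 to -0.21). Within the parts, the added reads of Tff2 thus lay in the earlier exons. The parts held 97.7% of its Ctr reads and 89.5% of its knockdown reads, so some added reads lay outside them. Tff2 was the only one of the 9 members past 2-fold lower in this measure and 0 were past it in the other direction, where 5.42% of 10985 genes were as much lower and 7.6% higher. For Vil1 the last exon held 209 and 297 reads and the earlier exons 210 and 427, a density ratio of 3.68 and 2.57 and a log2 change of -0.52 (-0.88 to -0.16). Muc2 had the steepest 3' bias of the members (8.96 and 12.9), with a change of 0.53 (-0.78 to 1.85) on 15 and 24 last-exon reads. Fabp1 (-0.15, -0.59 to 0.28), Fabp2 (0.02, -0.57 to 0.61) and Tff3 (0.14, -0.20 to 0.47) showed no change beyond counting error, and the median over all genes was 0.05.

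**Figure D3:**
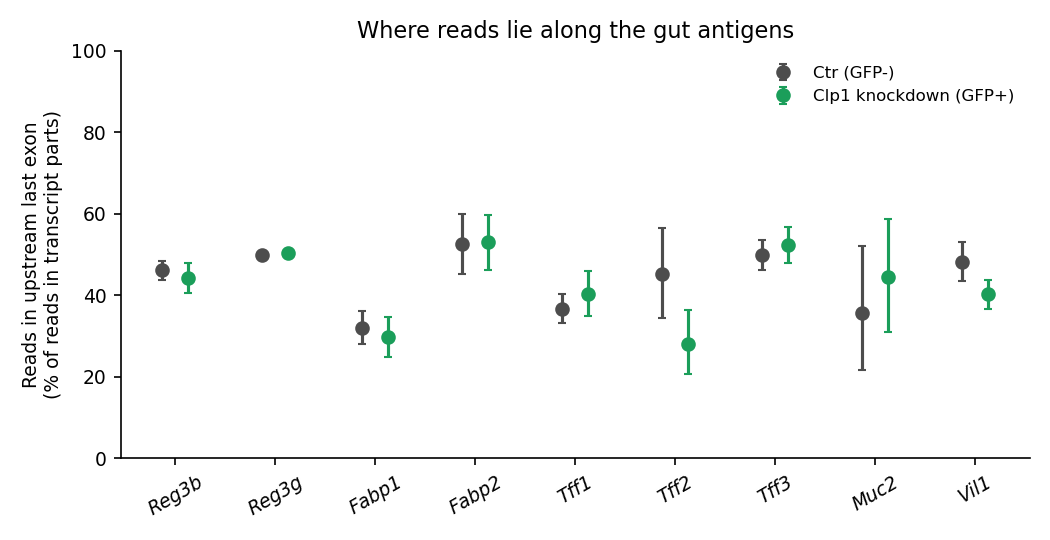
Share of the reads in deposited transcript parts that lay in the upstream last exon, in percent, for 9 gut antigens in Ctr (grey) and Clp1 knockdown (green), with exact binomial 95% intervals that cover counting error only. The intervals of the 2 libraries overlap for each of the 9, narrowly for Tff2 (45.2% in Ctr and 27.9% under knockdown) and Vil1 (48.3% and 40.2%).

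Vil1 was the sole member with a distal 3'UTR, the stretch of 42 bp between its proximal pA and its annotated end whose sequences are shown above. The d3'UTR ratio, that is the read density of this stretch over the upstream last exon (641 bp), was 1.02 in Ctr (14 distal reads) and 0.771 in the knockdown library (15 distal reads). The log2 change was -0.41 (-1.59 to 0.79), an interval that holds no change, on few distal reads. Over 4304 genes the median change was 0.01, and 13.3% were 2-fold lower and 14.2% higher. The stretch is shorter than the 50 bp reads, and of 409 distal parts in the table shorter than a read only 39 had any read. The study describes counting reads that lie wholly inside a part, and no such read fits in 42 bp. How the distal reads of Vil1 came to be counted is not known, so its ratio is no measure of pA use at any depth. The last 50 exonic bases of Vil1 also overlap an exon of Usp37 on the minus strand, which had 509 and 1271 reads, and reads of the 2 genes cannot be told apart there.

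The lectins and trefoil factors lie in clusters, and their nearest measured genes were examined on each side. Reg3a, the lectin next to Reg3b at a distance of 7.24 kb, was lower too, with 130 and 71 reads (-1.25, -1.69 to -0.82). Reg1, on the other side of the cluster beside Reg3g, had 635 and 670 reads (-0.30, -0.46 to -0.14). Between them Reg2 had 0 and 17 reads, a ratio of 4.36-fold when Ctr is set to the floor of 3 reads. On the side of Tff1 away from Tff2 lay Ubash3a, a T cell signalling gene, with 394 and 207 reads (-1.31), and Rsph1, a ciliary gene, with 199 and 110 reads (-1.23), both lower. Abcg1, which lies 9.53 kb from Tff3, had 1824 and 1334 reads (-0.83), under the rule. Tff2, with a ratio above 0, thus lay between Tff3 and Tff1, with ratios below 0. Muc2 lay 34.3 kb from Muc5ac, the gastric surface mucin, which had 6 and 182 reads (4.54, 3.39 to 6.01), and beyond it Muc5b had 27 and 16 reads (-1.13, -2.12 to -0.19), an interval that overlaps that of Muc2.

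Over the 31 distinct neighbours of all members 7 were higher and 6 lower, with a median of 0.004, near the shares over all genes. Beside those named, Ctnna2 (2 and 401 reads, 7.27, 5.41 to 10.3) was higher, at a distance of 391 kb from Reg3b. Tacr1 (1 and 348 reads, 8.06, 5.58 to 13.4) was higher too, but 3933 kb from Reg3g. Thnsl2 (176 and 831 reads) and Smyd1 (0 and 29 reads, 7.44-fold against the floor) by Fabp1 were higher as well. So was Usp53 (297 and 910 reads) by Fabp2. The lower ones were C1qtnf2 (49 and 23 reads) by Fabp6 and Ctdsp1 (277 and 160 reads) by Vil1.

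**Figure D4:**
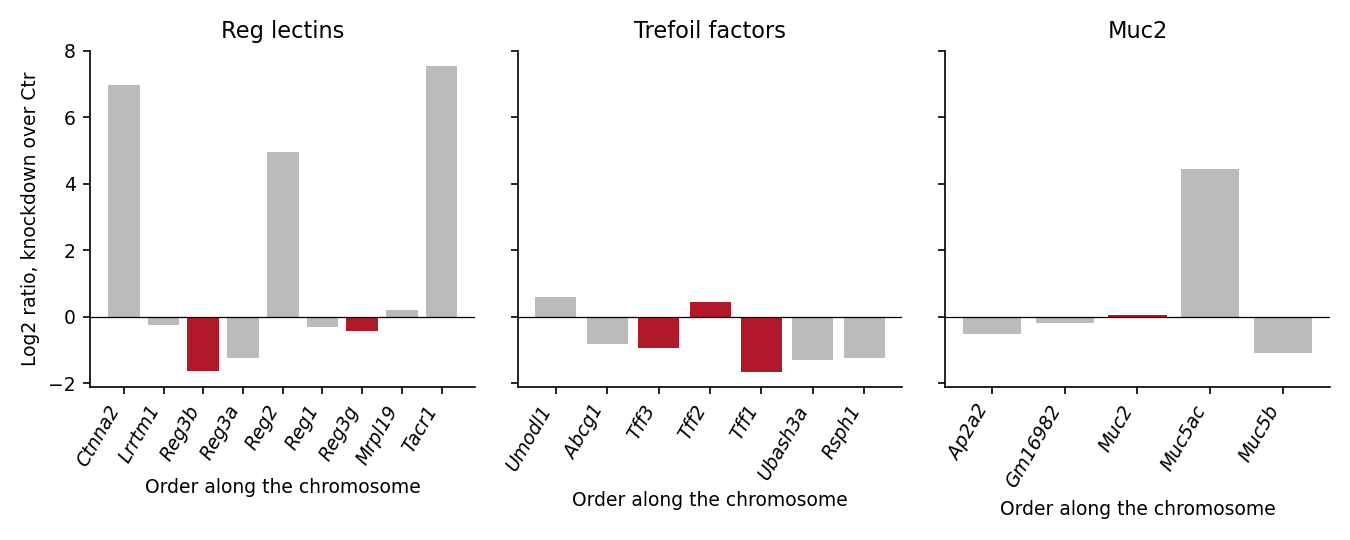
Log2 ratios (knockdown over Ctr) of Reg3b, Reg3g, the trefoil factors and Muc2 (red, nothing added) and of their nearest measured genes (grey, 0.5 added to scaled reads). Genes are in order along the chromosome and not to scale. Reg3b and Reg3a lie side by side below 0, Tff2 stands above 0 between Tff3 and Tff1, and Muc5ac next to Muc2 stands at 4.45 on this scale.

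Other genes of the same families and gut programs place the members. Of 4 other Reg lectins with at least 10 reads, 1 was higher (Reg2) and 1 lower (Reg3a), with a median log2 ratio of 0.01. Of 12 other cytosolic lipid-binding proteins, 5 were lower and 0 higher (median -0.83), led by Rbp7 (481 and 30 reads, -4.38), Fabp4 (23247 and 7876 reads, -1.94) and Fabp3 (126 and 53 reads, -1.63). Fabp4 and Rbp7 are also known from endothelium and fat, and endothelial markers were lower in the same library, a part that was not tested. Among 7 other mucins Muc5ac was higher and 3 were lower (median -0.48), among them Emcn (439 and 62 reads, -3.20), an endothelial sialomucin that is also on the endothelial list.

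Of 12 goblet cell products, which share a cell type with Tff3 and Muc2, 2 were higher and 4 lower (median -0.47). Agr2, the disulfide isomerase that folds Muc2, had 386 and 14 reads (-5.16) and Zg16, a mucus lectin, 285 and 62 (-2.58), far below the -0.95 of Tff3, and Tpsg1 had 107 and 31 (-2.17), while St6galnac1 (19 and 97 reads, 1.97) and Sytl2 (44 and 149 reads, 1.38) were higher. Of 12 Paneth cell and epithelial antimicrobials, companions of the Reg3 lectins in function, 3 were lower and 0 higher (median -0.71), namely Ltf (479 and 50 reads, -3.64), which neutrophils also make, Slpi (1848 and 832 reads, -1.53) and Itln1 (377 and 239 reads, -1.04). Of 10 gastric genes, 5 were lower and 2 higher (median -0.92). The trefoil partner Gkn2 (156 and 79 reads, -1.36) and Cblif, the intrinsic factor (252 and 138 reads, -1.25), were lower as Tff1 was. So was Vsig1 (159 and 35 reads, -2.56). Of the acid pump genes, Atp4b went from 0 to 156 reads, 40.0-fold against a floor of 3 reads. Atp4a, in contrast, was lower (1572 and 1001 reads, -1.03).

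Vil1 acts in the microvillus with other actin bundlers and linkers. Of 16 such genes 4 were higher and 1 lower, close to the share of all genes that was higher. Their median was 0.35, but 0.02 with every transcript counted and -0.24 relative to general thymic epithelial genes. Named members of the list were Anks4b (82 and 367 reads, 1.78), Cdhr2 (166 and 528 reads, 1.29) and Pls1 (941 and 2900 reads, 1.25), all higher, and Fscn1, an actin bundler outside the gut, which was lower (7908 and 3546 reads, -1.54). Of 11 brush border enzymes and transporters 4 were higher and 2 lower (median -0.24), with Mgam (3 and 204 reads, 5.71, 4.14 to 7.999), Tmprss15 (4 and 213 reads, 5.36) and Mep1a (269 and 1241 reads, 1.83) against Anpep (131 and 52 reads, -1.71) and Alpi (259 and 152 reads, -1.15). Of 16 genes of enterocyte lipid and bile acid handling, the pathway of the Fabp carriers, 3 were higher and 4 lower (median -0.31). Apob (25 and 685 reads, 4.40) and Mogat2 (108 and 284 reads, 1.02) were higher, and Cd36 (8205 and 1047 reads, -3.35), Apoa1 (2487 and 719 reads, -2.17) and Abcg8 (172 and 82 reads, -1.45) were lower. Of 19 intestinal transcription factors 6 were higher and 4 lower (median 0.23). Gata5, Isx and Pdx1 had 0 reads in Ctr and 163, 97 and 84 in the knockdown library (41.8-, 24.9- and 21.5-fold against the floor). Gata4 (660 and 19 reads, -5.50), Foxa3 (98 and 4 reads, -4.99) and Foxa2 (127 and 42 reads, -1.97) were lower.

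**Figure D5:**
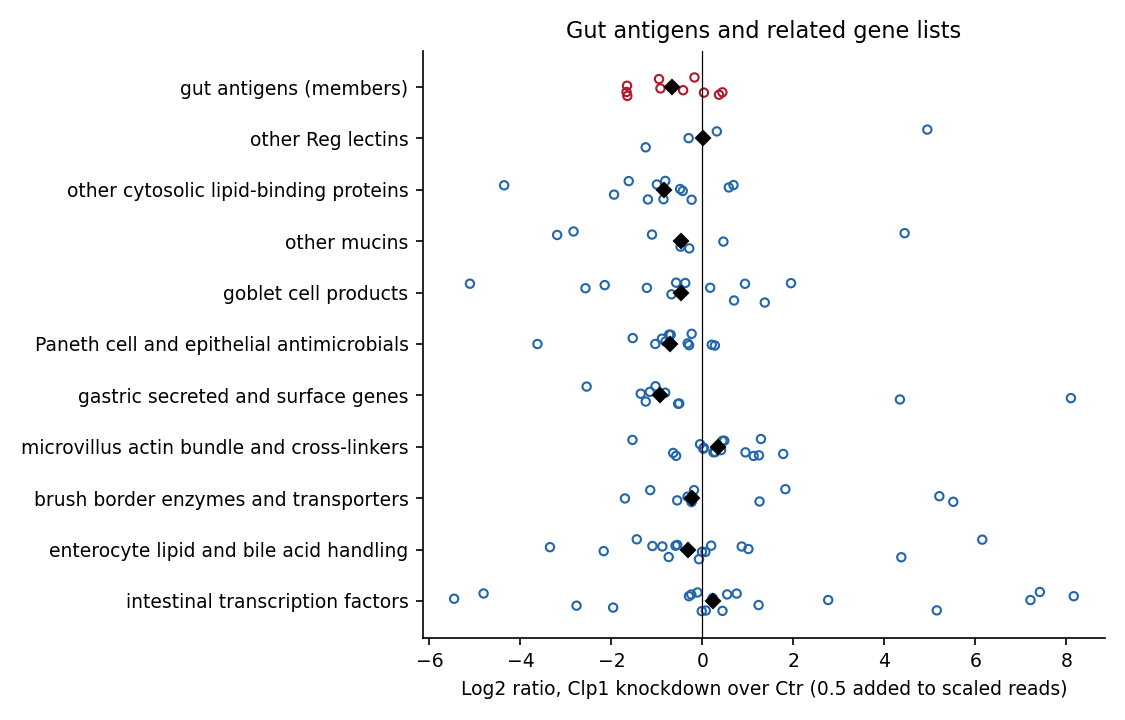
Log2 ratios (knockdown over Ctr, 0.5 added to scaled reads) of the 10 gut antigens (red circles) and of genes with at least 10 reads in 10 related lists (blue circles), with list medians as black diamonds and random vertical spread. The members range from -1.67 to 0.44, while several related lists hold single genes beyond 4 in either direction, some of them with 0 Ctr reads, whose place depends on the 0.5 added.

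The mTEC subtypes that carry gut-like programs and the remaining cell types were read from their marker lists. Microfold-like markers had 1 gene higher (Tnfrsf11b, 3357 and 10025 reads) and 2 lower of 11 (Ccl20, 6423 and 2698 reads, and Tnfaip2, 5786 and 3276 reads), with a median of -0.37. Tuft-like markers had 4 higher and 0 lower of 11 (median 0.65), led by Il25 (5 and 350 reads). Relative to general thymic epithelial genes their median was 0.07. Avil, among those higher, is also on the microvillus list. The cTEC list had 6 lower and 0 higher of 10, led by Psmb11 (3655 and 694 reads). Its median was -1.40, but 0.08 with every transcript counted. Thymocyte markers had 7 lower of 10 (median -2.27), B cell markers 5 of 7 (-3.73), fibroblast and mural cell markers 6 of 9 (-2.22) and neutrophil markers 7 of 9 (-2.36), each with 0 higher. Dendritic cell and macrophage markers had 6 lower and 1 higher of 9 (-1.66). Medians were -3.95 for the endothelial and -4.97 for the red cell list. Relative to the median of the general thymic epithelial genes, an alternative chosen after seeing the data, 6 members were called lower (Reg3b, Reg3g, Fabp1, Fabp6, Tff1 and Tff3). Tff2 and Vil1 were then at -0.14 and -0.22, in value below rather than above Ctr, though for Tff2 not beyond counting error. On that scale the median of all genes was -0.56, and 33.5% of all genes were lower and 14.4% higher.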

How the data were processed

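Total RNA of sorted GFP+ and GFP- mTEChi was made into poly-A-selected libraries from low input and sequenced single-end (50 bp). The submitters' processing notes name the mm9 build, Bowtie 1.0.0, bedtools and DESeq. The authors deposited whole-number read counts, without normalization, for each of 30794 RefSeq transcripts, and counts with lengths in bp for the parts of 27567 transcripts. Their table of differential expression (normalized signal, fold and p-value per transcript) holds the study's own comparison and was not used.

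Symbols came from RefSeq identifiers for 30216 transcripts, and the transcript with the most reads stood for a gene. The members and the 22 lists of other genes were chosen with earlier results of these data known. Of 249 listed symbols 5 were not matched. Each library was divided by its median-of-ratios size factor. Ratios carry exact Clopper-Pearson or conditional 95% intervals and levels Poisson intervals, all for counting error only. Against 0 reads, folds set the empty library to a floor of 3 reads (3.42 scaled reads in Ctr, 2.63 in the knockdown library). Such folds are not lower limits of a counting interval. For medians, 0.5 was added to scaled reads. Named genes were all members, Clp1, up to 3 genes higher and 3 lower per list by size of the ratio with at least 50 reads, and the called ones of the 2 nearest measured genes on each side. For lists of cells other than the gut, a few leading genes are given, and Aire was named after its values were seen. Atp4a was named beside Atp4b outside this rule. Coordinates and GC content came from NCBIM37 (mm9) with GENCODE vM1. Alternatives were other scalings, read minimums, folds and pseudocounts, a GC trend in 20 bins, and other denominators. Python 3.11.15, scipy 1.17.1, R 4.3.3 and edgeR 4.0.16 (for TMM factors) were used, and scripts were tested on simulated data.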

Additional observations from a re-analysis of the deposited data

How the results depend on the processing

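No paired analysis was possible because each group has 1 library, so no replicate could be left out either. Under the other scalings, the members called lower stayed at 3 and those called higher at 0. The read minimums, pseudocounts and transcript choice could not change these calls. Each member has 1 transcript, the 3 called have at least 935 reads over both libraries, and the call rule adds no pseudocount. A fold of 1.5 called 5 lower (Fabp1 and Tff3 in addition, where 28.0% of all genes were lower). With the GC trend subtracted 4 were lower, including Fabp1 (-1.24), the log2 ratio of Tff1 was -1.28 and that of Reg3b -1.97. Relative to general thymic epithelial genes, chosen after seeing the data, 6 were lower, and 20 genes of the other lists were higher in place of 33. With every transcript counted, 54 were higher, since isoforms of a gene then count singly. The median of the members ranged from -0.92 to -0.65, and was -1.26 relative to thymic epithelial genes. Without single members in turn, also added afterwards, it lay between -0.92 and -0.42. On the last exon alone, Vil1 (11.5 RPKM in Ctr) passed Tff2 (8.29), and the level of Muc2 was 1.39 RPKM in Ctr and 1.69 under knockdown in place of 0.227 and 0.230, still the lowest of the 9 members with a last exon. The log2 change of the d3'UTR ratio of Vil1 was -0.69 with all upstream exons as denominator. Depth limits Muc2 most, and the distal part of Vil1 is shorter than a read.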
